A study of Mus musculus with 4 samples.

Results

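The genes that drive entry into mitosis and carry it out were measured here in macrophages, as 52 genes chosen by name for the mitotic cyclins, kinases, kinetochore, spindle and condensin. Each of the 52 symbols matched 1 entry among the 55536 annotated genes, and all 52 were among the 14041 genes tested. The cells were bone marrow-derived macrophages of C57BL/6J mice, primary cells grown out of marrow, sampled 15 minutes after 100 ng/ml of lipid A, the part of bacterial lipopolysaccharide that Toll-like receptor 4 binds. RNA came from the cytosolic fraction, was depleted of ribosomal RNA and sequenced from 1 µg per library with a size range of 250 to 400. All 4 libraries form a single group, numbered as biological replicates 1 to 4, and neither unstimulated cells nor nuclear RNA were analysed here. A response to lipid A therefore cannot be read from these levels. The labels name 1 donor record for all 4 libraries, give sex and age as not collected, and do not say whether separate animals or cultures were used, so p-values reflect only how far these samples differ among themselves, and that spread may be technical. In bulk RNA of this kind, fewer cycling cells and less RNA per cycling cell cannot be told apart.

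Cells divide by a fixed order of protein switches. Cyclin-dependent kinase 1, bound to cyclin A and then cyclin B, starts mitosis, after which Polo and Aurora kinases build the spindle, kinetochores tie chromosomes to it, and a checkpoint holds the anaphase-promoting complex back until every chromosome is attached. Most of these genes are transcribed mainly in G2 and mitosis and repressed in resting cells, under the DREAM, B-Myb and FoxM1 complexes, through a promoter element called the cell cycle genes homology region (CHR) that often lies near boxes for the factor NF-Y. Macrophages grown from marrow divide while growth factor is supplied and leave the cycle as they mature.

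Most of the 52 genes were present at low levels. TPM, a gene's length-corrected share of all transcripts, averaged at least 1 over the libraries for 43 of 52 genes, which is the level counted as detected here. Of these, 5 averaged at least 10 TPM and 38 lay between 1 and 10 TPM, while 9 averaged under 1 TPM. The 5 most abundant were Cenpa at 24.9 ± 15.2 TPM, Incenp at 13.9 ± 5.19, Pttg1 at 13.0 ± 2.90, Cdk1 at 12.5 ± 9.60 and Smc4 at 10.4 ± 3.51 (SD, n = 4). The lowest was Cdc25c at 0.307 ± 0.198 TPM (SD, n = 4). These levels depend on the table: 22 of the 52 genes were detected in the authors' target tables, where 0 averaged 10 TPM and the highest were Cenpa at 8.10 TPM, Cdk1 at 5.84 and Incenp at 5.02. The levels also depend on the abundant structural RNAs 7SL and 7SK, which took 61.0% to 69.7% of all TPM in a library. Without these, the mean TPM of each of the 52 genes rose by more than its SD. The counts at 1 and 10 TPM hold with these RNAs included. Every gene had at least 10 expected counts, the reads assigned to a gene by the authors' estimate, in every library.

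The libraries differed in their mitotic RNA. The median over the 52 genes of log2(TPM + 1) was 2.12 in replicate 1, 1.16 in replicate 2, 1.00 in replicate 3 and 1.69 in replicate 4, a mean of 1.49 ± 0.51 (SD, n = 4). Summed over the 52 genes, the level was 284 TPM in replicate 1, 130 in replicate 2, 116 in replicate 3 and 227 in replicate 4. In replicate 1, 50 of the genes reached 1 TPM, against 32 in replicate 2, 26 in replicate 3 and 46 in replicate 4. TPM is a share of all RNA, and the abundant structural RNAs 7SL and 7SK took 63.0% of it in replicate 1, 69.7% in replicate 2, 68.4% in replicate 3 and 61.0% in replicate 4. The order of the libraries was therefore also read in log2 CPM, counts scaled to a common library size by TMM, a normalisation that balances most genes between libraries. On that scale replicate 1 was the highest library for 46 of 52 genes (41.4% of all genes tested), and replicate 3 the lowest for 47 of 52 (19.9% of all genes tested).

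**Figure D1:**
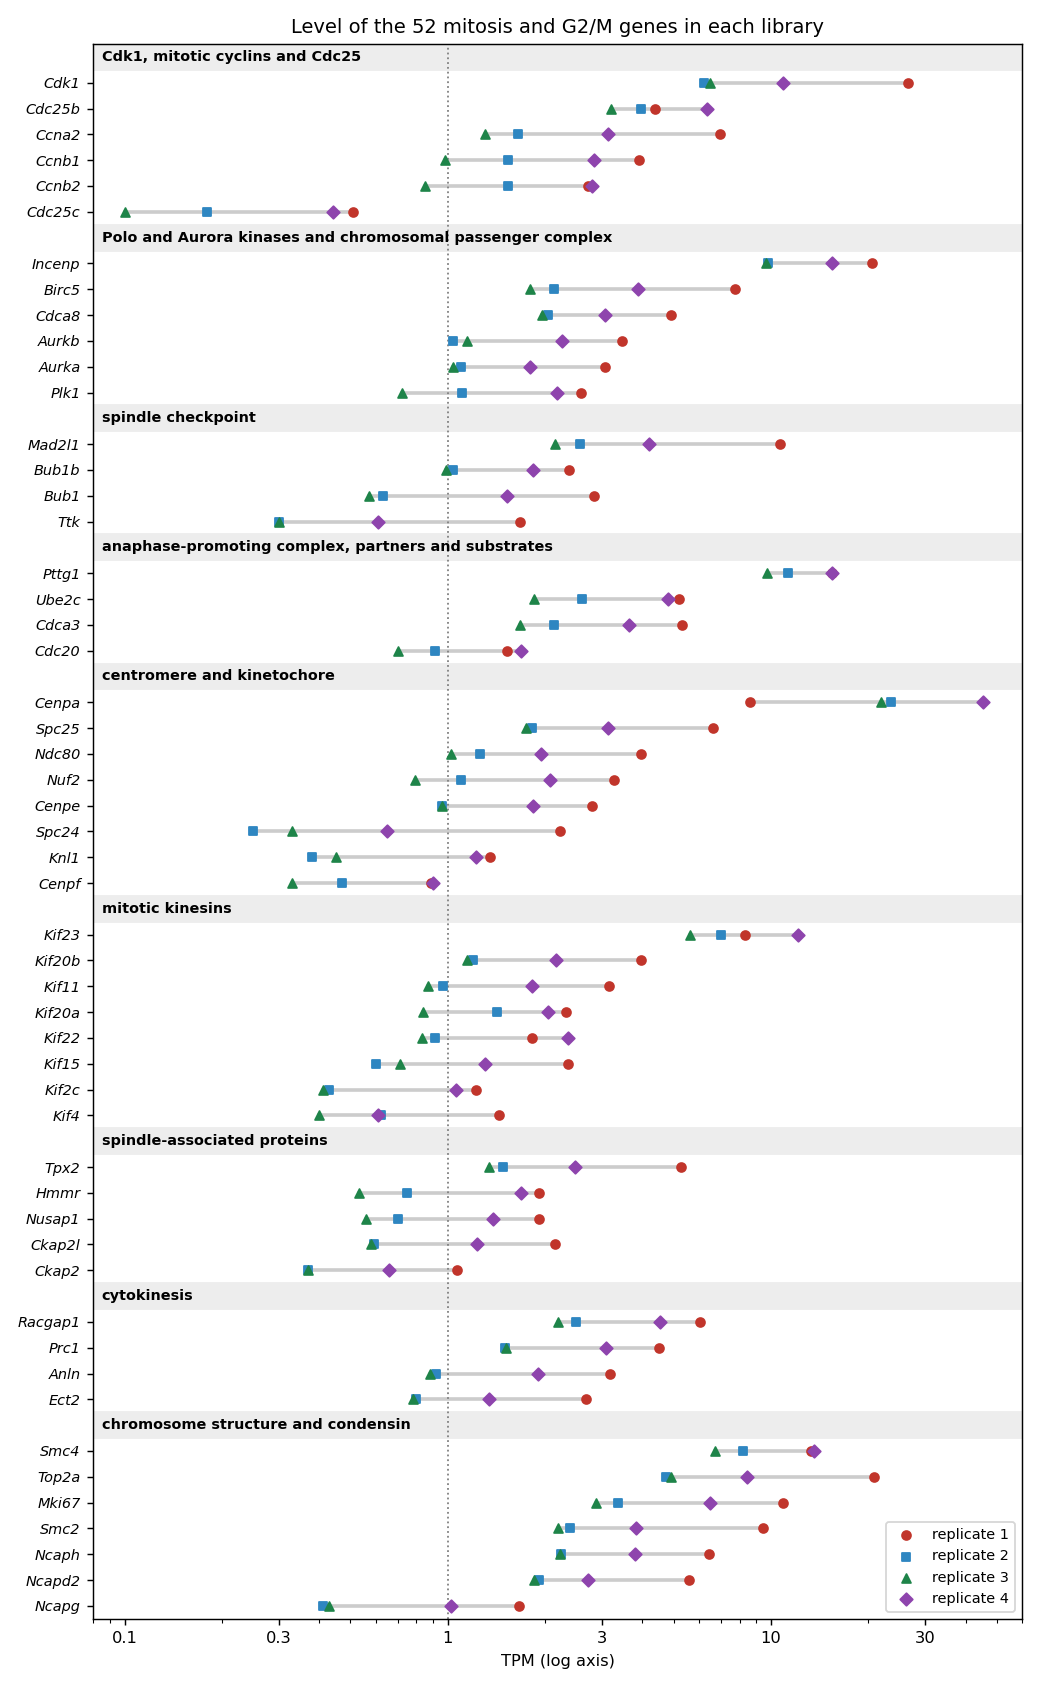
Level in TPM (log axis) of the 52 genes in each of the 4 libraries, by mitotic function; each marker is 1 library, the grey bar spans the lowest to the highest, and the dotted line marks 1 TPM. Replicate 1 lies to the right for most genes, Cenpa has replicate 1 as its lowest library, and for Pttg1 the markers of replicates 1 and 4 coincide at 15.4 TPM.

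Variation between libraries exceeded counting error for 51 of 52 genes by a Poisson deviance test adjusted over all genes tested, where 82.8% of all genes did the same. The exception, Pttg1, was named after its values were seen. The size of the variation was larger than usual: the SD of log2 CPM over the libraries had a median of 0.61 over the 52 genes and of 0.25 over all genes tested. It exceeded that all-gene median for 48 of the 52. The smallest SD was 0.07, for Pttg1, and the largest 1.18, for Spc24. As a ratio of the highest to the lowest library in TPM, the genes ranged from 1.58 for Pttg1 to 8.92 for Spc24, with a median of 3.49.

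Counts of each library were then set against those of its other 3. The test was the quasi-likelihood test of edgeR, p-values were adjusted over all 14041 genes by the Benjamini-Hochberg method, and a call needed an adjusted p under 0.05. In replicate 1 against replicates 2, 3 and 4, 29 of the 52 genes were higher (14.5% of all genes tested), 1 was lower (7.58% of all genes tested) and 22 were not called. The median log2 fold was 1.06 for the 52 genes and -0.00 for all genes tested, and 50 of 52 folds were positive, with Cenpa and Cdc25b, named after their values were seen, as the exceptions. In replicates 2, 3 and 4, each against its other 3 libraries, 0 of the 52 genes were called in either direction (0% of all genes tested in each). At an unadjusted p under 0.05, edgeR gave 0 of the 52 genes higher and 0 lower in replicate 2, where 0.0214% and 1.95% of all genes passed. It gave 0 higher and 1 lower, Ccnb2, in replicate 3, where 0.712% and 0.249% of all genes passed, and 0 and 0 in replicate 4, where 0.463% and 0.278% did. DESeq2's Wald test also called 0 of the 52 in each. Because each comparison shares its libraries with the others, their medians of -0.54 in replicate 2, -0.77 in replicate 3 and -0.07 in replicate 4 are not independent of the value in replicate 1. Without replicate 1, the median in replicate 4 against replicates 2 and 3 was 0.45. With 1 library against 3, the test assumes that the lone library varies like the rest.

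**Figure D2:**
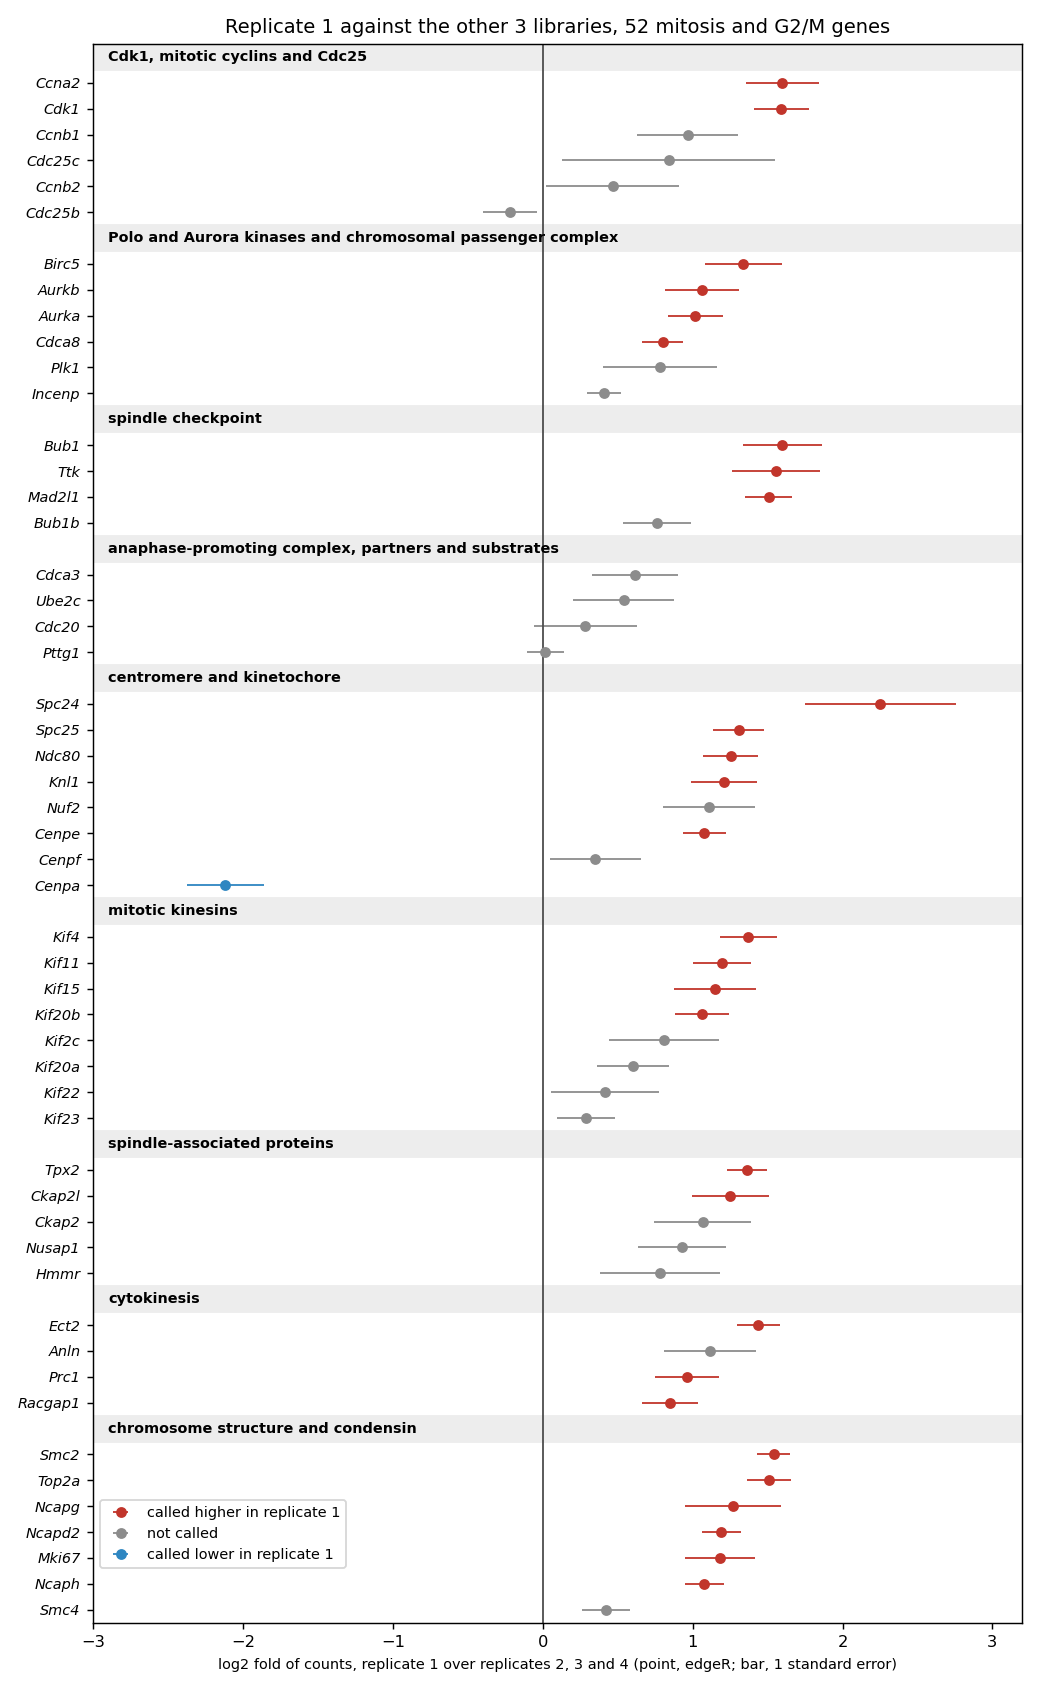
Log2 fold of counts in replicate 1 over replicates 2, 3 and 4 for the 52 genes, by mitotic function; points are edgeR estimates, bars are 1 standard error, red marks genes called higher, blue the gene called lower and grey genes not called. Folds run from -2.12 for Cenpa to 2.25 for Spc24, and the genes of the anaphase-promoting complex group are all grey.

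Promoters were examined because the genes moved together and their class is known for shared elements. RefSeq windows on build GRCm38.p6, from 250 bases before to 50 bases after the annotated start, were matched by symbol for 44 of 52 genes and 27025 genes in all. The letters TTTGAA, those of a CHR, stood on either strand in the windows of 34 of 44 genes (77.3%), against 14.8% of the 9767 genes tested that have a window and 20.2% of all genes with one. Within 50 bases of the start they stood in 30 of 44 (68.2%), against 3.90% of the genes tested. The letters CCAAT, those of an NF-Y box, were found on either strand in 32 of 44 (72.7%), against 42.8% of the genes tested. Both sets of letters occurred in 28 of 44 (63.6%), against 6.07% of the genes tested. Whether any match is a working element was not tested. A TTTGAA match was in 20 of 25 genes called higher in replicate 1 and in 13 of 18 not called. In a list of 32 replication and S-phase genes, 4 of the 25 with a window held TTTGAA (16%), while TTTCGCGC and TTTGGCGC, letters of E2F sites, were in 6 and 5 of the 25. Among the 44 mitotic genes those letters were in 1 and 2 windows.

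The following windows run 5′ to 3′ on the gene's strand from 120 bases before to 30 bases after the RefSeq start and show how the matches are spaced. Capitals mark TTTGAA or TTCAAA (CHR, either strand), TTCGAA (a form of it with a central CG) and CCAAT or ATTGG (NF-Y box, either strand). They cover the kinase Cdk1 (chr10:69352883-69353032, minus strand), the cyclin B gene Ccnb2 (chr9:70421525-70421674, minus strand), Top2a (chr11:99024160-99024309, minus strand) and Cdc20 (chr4:118437314-118437463, minus strand), which hold matches of both kinds. Cenpa (chr5:30666766-30666915, plus strand) is shown because it alone was lower in replicate 1. Bub1 (chr2:127831830-127831979, minus strand) and Cdc25b (chr2:131186828-131186977, plus strand) hold TTCGAA and no TTTGAA here. Mad2l1 (chr6:66535101-66535250, plus strand), among the genes called higher, holds none of the letters in this window. The window ends before the start of the gene entry used for counting, at base 66535390, so letters at that start were not searched.
Cdk1: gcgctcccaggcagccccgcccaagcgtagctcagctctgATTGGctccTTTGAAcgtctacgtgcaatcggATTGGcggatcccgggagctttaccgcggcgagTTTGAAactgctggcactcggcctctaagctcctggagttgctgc
Ccnb2: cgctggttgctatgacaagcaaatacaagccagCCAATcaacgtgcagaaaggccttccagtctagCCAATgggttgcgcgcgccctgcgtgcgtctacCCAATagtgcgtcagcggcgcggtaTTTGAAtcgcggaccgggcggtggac
Top2a: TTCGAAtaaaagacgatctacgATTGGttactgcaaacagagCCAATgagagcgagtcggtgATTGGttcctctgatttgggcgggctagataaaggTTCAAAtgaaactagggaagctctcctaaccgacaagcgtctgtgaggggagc
Cdc20: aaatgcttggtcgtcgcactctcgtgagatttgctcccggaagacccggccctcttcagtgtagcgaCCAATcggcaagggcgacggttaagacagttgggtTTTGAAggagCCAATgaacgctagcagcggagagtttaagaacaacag
Cenpa: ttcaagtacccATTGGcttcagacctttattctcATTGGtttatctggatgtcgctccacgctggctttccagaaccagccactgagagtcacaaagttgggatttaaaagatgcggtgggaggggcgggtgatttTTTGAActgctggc
Bub1: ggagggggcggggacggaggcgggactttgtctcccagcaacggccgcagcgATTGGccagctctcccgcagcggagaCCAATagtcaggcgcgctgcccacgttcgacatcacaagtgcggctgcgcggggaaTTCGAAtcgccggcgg
Cdc25b: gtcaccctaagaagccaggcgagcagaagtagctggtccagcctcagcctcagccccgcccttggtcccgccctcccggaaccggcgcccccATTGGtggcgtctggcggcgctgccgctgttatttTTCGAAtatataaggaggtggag
Mad2l1: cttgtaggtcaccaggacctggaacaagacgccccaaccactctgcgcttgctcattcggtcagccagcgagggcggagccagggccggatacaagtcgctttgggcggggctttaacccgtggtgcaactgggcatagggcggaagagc

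**Figure D3:**
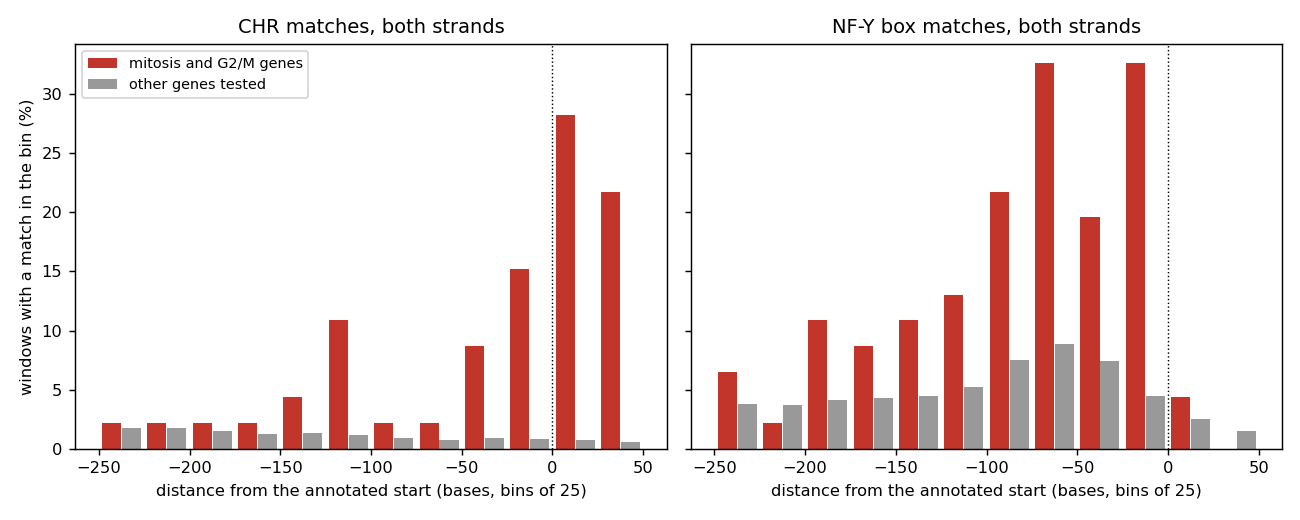
Share of promoter windows with a CHR match (left) or an NF-Y box match (right) in bins of 25 bases along the distance from the annotated start, both strands; red bars are windows of the mitosis and G2/M genes and grey bars those of the other genes tested. CHR matches of the mitotic genes peak just after the start, at 28.3% of windows in the bin from 0 to 25 bases against 0.777% of the others, and NF-Y box matches lie mainly upstream.

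The kinase at the head of mitosis and its first cyclin rose in replicate 1. Of the 6 genes for Cdk1, the mitotic cyclins and the Cdc25 phosphatases, 2 were called higher and 0 lower. Here and in the function groups below, calls in replicate 1 stand beside 14.5% of all genes tested called higher and 7.58% called lower. Cdk1 (ENSMUSG00000019942.13, chr10:69335146-69352938, minus strand, mm10), the mitotic kinase, stood at 26.6 TPM in replicate 1, against 6.19 TPM in replicate 2, 6.48 in replicate 3 and 10.9 in replicate 4. Replicate 1 was the highest and replicates 2 and 3 were nearly level. The log2 fold of counts in replicate 1 over the others was 1.59 ± 0.18 (SE; edgeR adjusted p = 0.00684). Ccna2, the cyclin that partners Cdk1 before cyclin B does, had 6.98 TPM in replicate 1, against 1.65, 1.3 and 3.13 TPM in replicates 2, 3 and 4. Replicate 1 was the highest and replicate 4 the next, and the log2 fold was 1.60 ± 0.24 (SE; edgeR adjusted p = 0.0133). Cyclin B did not pass the test. Ccnb1 had 3.9 TPM in replicate 1, against 1.54, 0.98 and 2.84 TPM in replicates 2, 3 and 4. Ccnb2 had 2.71 TPM in replicate 1, against 1.54, 0.85 and 2.79 TPM in replicates 2, 3 and 4, so that replicate 4 was as high as replicate 1. The phosphatases that switch Cdk1 on were not called either. Cdc25b averaged 4.47 ± 1.33 TPM (SD, n = 4) with replicate 4 the highest at 6.33, and Cdc25c had 14 to 44 counts in a library.

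Among the Polo and Aurora kinases and the chromosomal passenger complex, which corrects spindle attachments, 4 of 6 genes were called higher in replicate 1 and 0 lower. Birc5, the survivin subunit of the complex, had 7.74 TPM in replicate 1, against 2.13, 1.8 and 3.89 TPM in replicates 2, 3 and 4, a log2 fold of 1.34 ± 0.26 (SE; edgeR adjusted p = 0.0243). Aurkb, the kinase of that complex, had 3.45 TPM in replicate 1, against 1.04, 1.15 and 2.26 TPM in replicates 2, 3 and 4, a log2 fold of 1.06 ± 0.25 (SE; edgeR adjusted p = 0.0381). Aurka, the spindle pole kinase, had 3.07 TPM in replicate 1, against 1.1, 1.04 and 1.8 TPM in replicates 2, 3 and 4, a log2 fold of 1.02 ± 0.18 (SE; edgeR adjusted p = 0.0206). In each of these 3 genes replicate 1 was above every other library. Cdca8, the borealin subunit, was the fourth gene called, with 4.92 TPM in replicate 1 and 1.96 to 3.07 TPM in the others. Plk1, the Polo kinase, was not called, with 2.59 TPM in replicate 1 against 1.11, 0.72 and 2.18 TPM in replicates 2, 3 and 4. Incenp, the scaffold of the complex, was the most abundant of the group and not called, with 20.5 TPM in replicate 1 and 9.65 to 15.4 TPM in the others. Without replicate 3, Aurkb lost its call (edgeR adjusted p = 0.0778).

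The spindle checkpoint, which delays anaphase while chromosomes are unattached, had 3 of 4 genes called higher in replicate 1 and 0 lower. Bub1, a checkpoint kinase at the kinetochore, had 2.83 TPM in replicate 1, against 0.63, 0.57 and 1.52 TPM in replicates 2, 3 and 4, a log2 fold of 1.60 ± 0.26 (SE; edgeR adjusted p = 0.016). Mad2l1, the inhibitor that binds Cdc20, had 10.7 TPM in replicate 1, against 2.56, 2.15 and 4.19 TPM in replicates 2, 3 and 4, a log2 fold of 1.51 ± 0.16 (SE; edgeR adjusted p = 0.00566). Ttk, the kinase also called Mps1, had 1.67 TPM in replicate 1, against 0.3, 0.3 and 0.61 TPM in replicates 2, 3 and 4, a log2 fold of 1.56 ± 0.29 (SE; edgeR adjusted p = 0.0227). Replicate 1 stood above the other libraries in all 3 of these genes, and Ttk lost its call without replicate 3 (edgeR adjusted p = 0.053). Bub1b, which encodes BubR1, was not called and averaged 1.56 ± 0.67 TPM (SD, n = 4).

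The function group of the anaphase-promoting complex, which that checkpoint holds back, gave no call. It holds 4 genes grouped here as partners or substrates of the complex, and is not a full list of its substrates. Of these 4, 0 were called in replicate 1 by edgeR and 0 by DESeq2's Wald test. At an unadjusted edgeR p under 0.05, 0 passed in either direction, where 22.5% of all genes tested passed as higher and 13.7% as lower. Pttg1, which encodes securin, the inhibitor of the cohesin-cutting protease, had 364 expected counts in replicate 1, against 547, 398 and 544 counts in replicates 2, 3 and 4. Its TPM was 15.4 in replicate 1 and 11.3, 9.73 and 15.4 in replicates 2, 3 and 4. No other of the 52 genes had a smaller spread between libraries in log2 CPM. Cdc20, the activator that the checkpoint inhibits, had 1.52 TPM in replicate 1, against 0.91, 0.7 and 1.68 TPM in replicates 2, 3 and 4. Ube2c, the ubiquitin-conjugating enzyme of the complex, had 5.21 TPM in replicate 1, against 2.61, 1.85 and 4.81 TPM in replicates 2, 3 and 4. In both, replicates 1 and 4 were alike and above replicates 2 and 3. Cdca3, a substrate of the complex, averaged 3.19 ± 1.65 TPM (SD, n = 4).

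At the centromere and kinetochore, 5 of 8 genes were called higher in replicate 1 and 1, Cenpa, was lower. The Ndc80 complex, which holds the microtubule, has 4 subunits: Ndc80, Spc24 and Spc25 were among the genes called, and Nuf2 was not. Spc24 (chr9:21755442-21760303, minus strand, mm10) had 100 expected counts in replicate 1, against 19, 28 and 39 counts in replicates 2, 3 and 4. Its level was 2.23 TPM in replicate 1 and 0.25 to 0.65 TPM in the others. The log2 fold of 2.25 ± 0.50 (SE; edgeR adjusted p = 0.0352) rests on few counts and lost its call without replicate 3 (edgeR adjusted p = 0.0748) and in the target tables (edgeR adjusted p = 0.0524). Spc25 had 6.64 TPM in replicate 1, against 1.82, 1.75 and 3.13 TPM in replicates 2, 3 and 4, a log2 fold of 1.31 ± 0.17 (SE; edgeR adjusted p = 0.00949). Nuf2 had 3.26 TPM in replicate 1, against 1.1, 0.79 and 2.07 TPM in replicates 2, 3 and 4. Replicate 1 was again the highest library for both. Ndc80 itself had 3.96 TPM in replicate 1 and 1.02 to 1.95 TPM in the others. The other genes called were the motor gene Cenpe, with 2.79 TPM in replicate 1 and 0.96 to 1.84 TPM in the others, and the scaffold gene Knl1, with 1.35 TPM in replicate 1 and 0.38 to 1.22 TPM in the others. Cenpf averaged 0.647 ± 0.291 TPM (SD, n = 4) with no call.

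Cenpa, the histone H3 variant that marks the centromere, ran the other way. The gene (ENSMUSG00000029177.9, chr5:30666777-30674830, plus strand, mm10) had 432 expected counts in replicate 1, against 2326, 2004 and 3474 counts in replicates 2, 3 and 4. Its level was 8.62 TPM in replicate 1, against 23.6 TPM in replicate 2, 21.9 in replicate 3 and 45.3 in replicate 4. Replicate 1 lay below every other library, and the log2 fold was -2.12 ± 0.26 (SE; edgeR adjusted p = 0.00792). Over the alternatives the log2 fold ran from -2.21 to -1.95 and kept its call in each. Protein-coding transcripts held 37.6% of its summed TPM. Another of 1031 bases, annotated as a target of nonsense-mediated decay, held 51.1% of the gene's abundance in replicate 1, 49.9% in replicate 2, 45.5% in replicate 3 and 47.8% in replicate 4 by the authors' percentages. Protein-coding transcripts of Cenpa summed to 3.63 TPM in replicate 1, against 10.2, 7.89 and 15.7 TPM in replicates 2, 3 and 4. Transcripts of the decay class summed to 4.64 TPM in replicate 1, against 12.6, 10.6 and 22.7 TPM in replicates 2, 3 and 4. Both classes were therefore lowest in replicate 1. The other 51 genes together had 275 TPM in replicate 1, against 106, 93.6 and 182 TPM in replicates 2, 3 and 4.

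**Figure D4:**
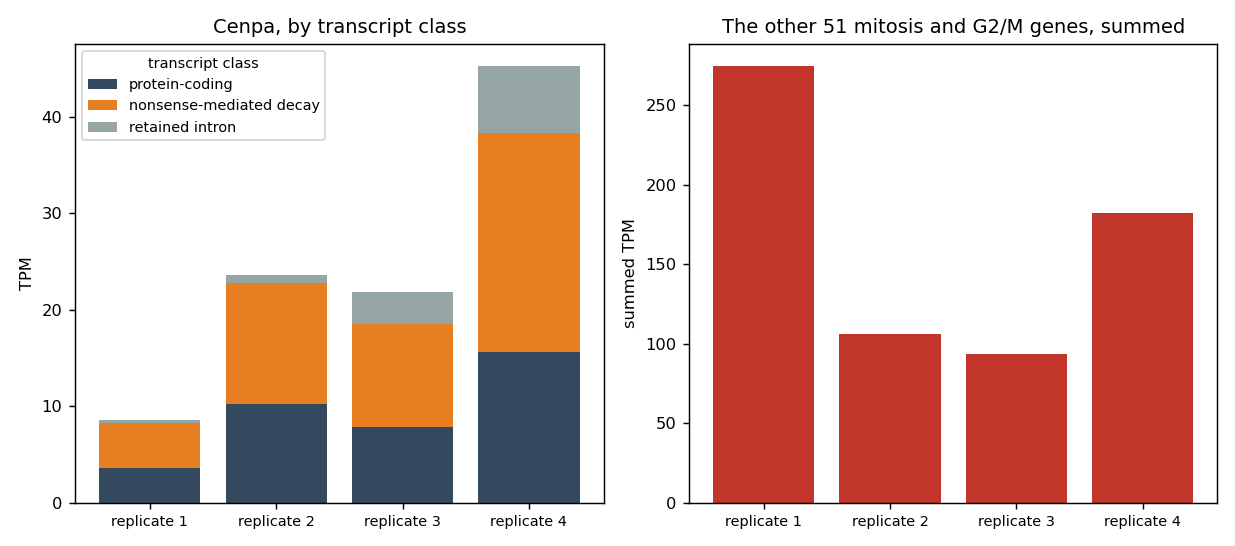
Left, TPM of Cenpa in each library, stacked by annotated transcript class; right, summed TPM of the other 51 mitosis and G2/M genes in the same libraries. Replicate 1 has the lowest Cenpa bar, 8.62 TPM over its classes, and the tallest bar for the other genes, 275 TPM.

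Motor proteins of the spindle shared a direction in replicate 1. Of 8 mitotic kinesin genes, 8 had a positive log2 fold there, from 0.29 to 1.37, while 4 were called higher and 0 lower. Kif4, a chromosome-bound kinesin, had 1.44 TPM in replicate 1, against 0.62, 0.4 and 0.61 TPM in replicates 2, 3 and 4, a log2 fold of 1.37 ± 0.19 (SE; edgeR adjusted p = 0.0107). Kif11, the motor also called Eg5 that pushes the spindle poles apart, had 3.16 TPM in replicate 1, against 0.97, 0.87 and 1.82 TPM in replicates 2, 3 and 4, a log2 fold of 1.20 ± 0.19 (SE; edgeR adjusted p = 0.0154). Kif15, which works beside Eg5, had 2.35 TPM in replicate 1, against 0.6, 0.71 and 1.3 TPM in replicates 2, 3 and 4, a log2 fold of 1.15 ± 0.27 (SE; edgeR adjusted p = 0.0409). Replicate 1 was the highest library for each, and Kif20b was the fourth gene called, with 3.95 TPM in replicate 1 and 1.15 to 2.17 TPM in the others. The 4 kinesin genes not called were Kif23, Kif20a, Kif22 and Kif2c. Kif23, a subunit of centralspindlin, had 8.34 TPM in replicate 1, against 7.01, 5.62 and 12.2 TPM in replicates 2, 3 and 4. Kif20a, which carries the passenger complex to the midzone, had 2.33 TPM in replicate 1, against 1.42, 0.84 and 2.04 TPM in replicates 2, 3 and 4. Kif22 averaged 1.48 ± 0.73 TPM and Kif2c 0.78 ± 0.42 TPM (SD, n = 4). Kif4 overlaps Pdzd11 on the opposite strand, at 11.8 TPM, and whether counting used strand is not given.

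Of 5 genes for spindle-associated proteins, 2 were called higher in replicate 1 (14.5% of all genes tested) and 0 lower (7.58% of all genes tested). Tpx2, which activates Aurora A on the spindle, had 5.25 TPM in replicate 1, against 1.48, 1.34 and 2.47 TPM in replicates 2, 3 and 4, a log2 fold of 1.36 ± 0.14 (SE; edgeR adjusted p = 0.00524). Ckap2l had 2.15 TPM in replicate 1, against 0.59, 0.58 and 1.23 TPM in replicates 2, 3 and 4, a log2 fold of 1.25 ± 0.26 (SE; edgeR adjusted p = 0.0285). Replicates 2 and 3 were nearly level in both genes, and Ckap2l lost its call without replicate 3 (edgeR adjusted p = 0.056). Nusap1, Hmmr and Ckap2 were not called, with means of 1.14 ± 0.63, 1.22 ± 0.68 and 0.618 ± 0.331 TPM (SD, n = 4).

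For cytokinesis, the division of the cell body, 3 of 4 genes were called higher in replicate 1 and 0 lower. Ect2, the exchange factor that activates RhoA at the furrow, had 2.68 TPM in replicate 1, against 0.8, 0.78 and 1.34 TPM in replicates 2, 3 and 4, a log2 fold of 1.44 ± 0.14 (SE; edgeR adjusted p = 0.00517). Prc1, which bundles microtubules of the central spindle, had 4.49 TPM in replicate 1, against 1.5, 1.51 and 3.08 TPM in replicates 2, 3 and 4, a log2 fold of 0.96 ± 0.21 (SE; edgeR adjusted p = 0.0337). Racgap1, the partner of Kif23 in centralspindlin, had 6.05 TPM in replicate 1, against 2.5, 2.19 and 4.53 TPM in replicates 2, 3 and 4, a log2 fold of 0.85 ± 0.19 (SE; edgeR adjusted p = 0.0337). Replicate 1 was above the other libraries in all 3, and Prc1 lost its call without replicate 3 (edgeR adjusted p = 0.0562). Anln, which encodes the furrow protein anillin, was not called and averaged 1.72 ± 1.08 TPM (SD, n = 4).

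The genes for chromosome structure and condensin, the complex that compacts mitotic chromosomes, had the most calls, with 6 of 7 higher in replicate 1 and 0 lower. Smc2, the condensin core subunit, had 9.44 TPM in replicate 1, against 2.39, 2.2 and 3.82 TPM in replicates 2, 3 and 4, a log2 fold of 1.54 ± 0.11 (SE; edgeR adjusted p = 0.00322). Top2a, the topoisomerase that untangles sister DNA, had 20.9 TPM in replicate 1, against 4.74, 4.91 and 8.41 TPM in replicates 2, 3 and 4, a log2 fold of 1.51 ± 0.15 (SE; edgeR adjusted p = 0.00507). Ncapg, a condensin I subunit, had 1.66 TPM in replicate 1, against 0.41, 0.43 and 1.02 TPM in replicates 2, 3 and 4, a log2 fold of 1.27 ± 0.32 (SE; edgeR adjusted p = 0.0474). In these 3 genes replicate 1 was above the other libraries, and Ncapg lost its call without replicate 3 (edgeR adjusted p = 0.0921). Ncapg also overlaps Lcorl on the opposite strand, at 5.76 TPM. The other genes called were the condensin I subunits Ncapd2, with 5.56 TPM in replicate 1 and 1.85 to 2.71 TPM in the others, and Ncaph, with 6.42 TPM in replicate 1 and 2.22 to 3.8 TPM in the others, and the proliferation marker Mki67. Ncapd2 contains the small RNA gene Scarna10 on the same strand, at 134 TPM. Mki67 had the most counts of the 52 genes in replicate 1, with 5069, against 3064, 2097 and 4200 in replicates 2, 3 and 4. Smc4, the second core subunit, shared by both condensins, was not called, with 13.3 TPM in replicate 1 against 8.18, 6.73 and 13.6 TPM in replicates 2, 3 and 4.

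Other genes of the same machinery were compared by lists. The counts that follow stand beside 14.5% of all genes tested called higher and 7.58% called lower in replicate 1. Of 26 further kinetochore and centromere genes, 13 were called higher in replicate 1 and 0 lower, with a median log2 fold of 1.17. Cenph, a subunit of the constitutive centromere network, had 2.74 TPM in replicate 1, against 0.32, 0.46 and 0.7 TPM in replicates 2, 3 and 4, and Zwint, which binds the kinetochore scaffold, averaged 16.1 TPM. Of 13 genes of cohesin and its release, 7 were higher and 0 lower, with a median of 0.39. Its called genes with the largest folds were Sgo1, Cdca5 and Sgo2a, which protect or stabilise cohesion, while the abundant Pds5a averaged 22.1 TPM. Of 16 genes for the anaphase-promoting complex and its regulators, 3 were higher and 0 lower, with a median of 0.11, a share near that of all genes tested. Of these Fbxo5, the inhibitor Emi1, had 3.84 TPM in replicate 1, against 0.74, 0.73 and 1.44 TPM in replicates 2, 3 and 4, and the others were the subunits Cdc23 and Cdc27. Of 3 condensin II genes, 1, Ncapd3, was higher.

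In replicate 1, log2 folds were positive for 11 of 13 genes that control mitotic entry and 20 of 23 that control mitotic transcription. Of 13 genes for entry brakes and phosphatase control, 7 were higher in replicate 1 and 1, Ensa, was lower, with a median log2 fold of 0.53. Chek1, the checkpoint kinase that restrains Cdc25, had 3.17 TPM in replicate 1, against 0.21, 0.34 and 0.28 TPM in replicates 2, 3 and 4, a log2 fold of 3.24 ± 0.32 (SE; edgeR adjusted p = 0.00517). Of 23 genes for regulators of mitotic transcription, 14 were higher and 0 lower, with a median of 0.56. Mybl2, which encodes B-Myb, had 2.45 TPM in replicate 1, against 0.23, 0.3 and 0.33 TPM in replicates 2, 3 and 4, a log2 fold of 2.89 ± 0.26 (SE; edgeR adjusted p = 0.00465). The repressors E2f7 and E2f8 followed, with log2 folds of 2.42 and 2.07. For Chek1 and Mybl2 the other 3 libraries lay together, whereas replicate 4 was above replicates 2 and 3 in TPM in most of the 52 mitotic genes. Of 7 genes for cell cycle inhibitors, 0 were higher and 2 lower (7.58% of all genes tested were lower), with a median of -0.12. This list went both ways, with 3 positive and 4 negative log2 folds, from -1.80 to 1.38. Cdkn1c, which encodes p57, had 4.96 TPM in replicate 1, against 18.7, 13.8 and 14.3 TPM in replicates 2, 3 and 4, and Cdkn1b, which encodes p27, had 5.31 TPM against 8.28, 6.71 and 13.9 TPM.

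Replication and S-phase genes had larger folds than the mitotic ones, and that difference was not tested. All 32 of the 32 were called higher in replicate 1, with a median log2 fold of 2.21, against 1.06 for the 52 mitotic genes. Cdc6, the replication licensing factor, had 5.52 TPM in replicate 1, against 0.41, 0.32 and 0.7 TPM in replicates 2, 3 and 4. Summed over the list, the level was 640 TPM in replicate 1, against 146 in replicate 2, 153 in replicate 3 and 202 in replicate 4. In log2 CPM the lowest library of an S-phase gene was replicate 2 for 13, replicate 3 for 7 and replicate 4 for 12 genes, whereas replicate 3 was the lowest for 47 of the 52 mitotic genes.

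**Figure D5:**
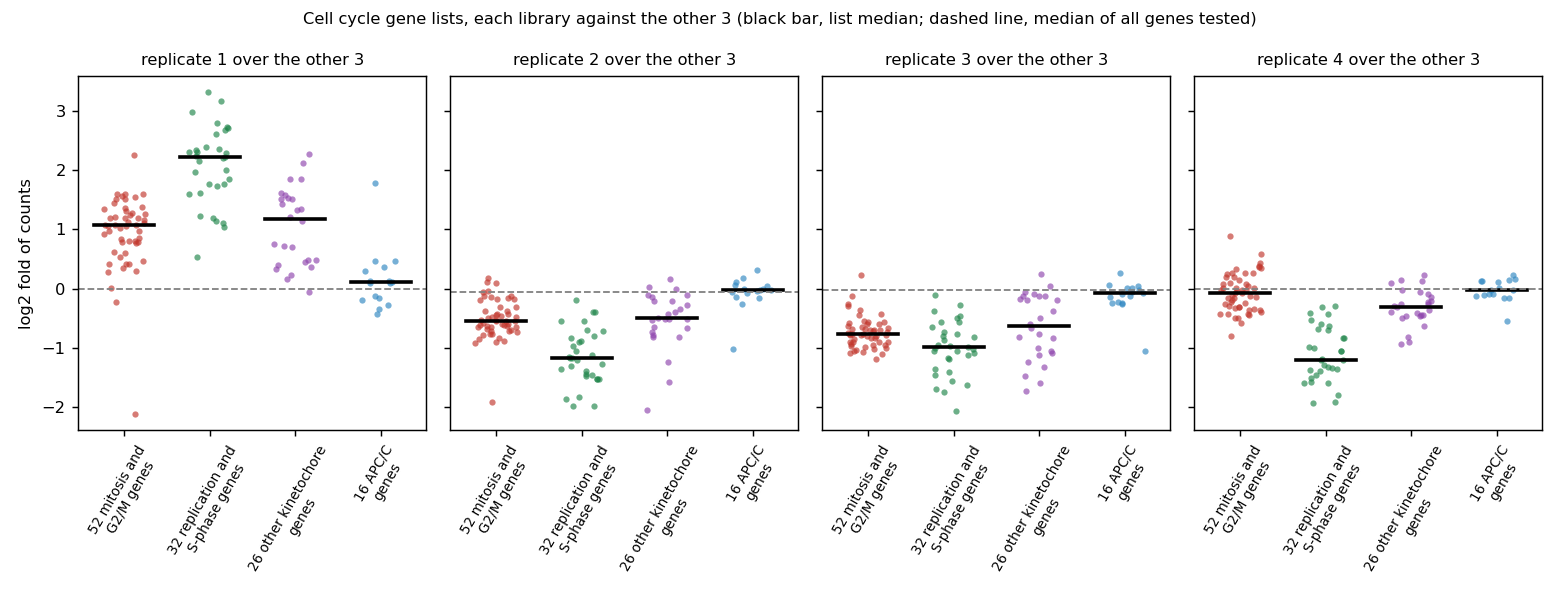
Log2 fold of counts in each library over its other 3, 1 panel per library, for the 52 mitosis and G2/M genes and 3 further lists; each point is a gene, black bars are list medians and the dashed line is the median of all genes tested. In replicate 1 the mitotic median is 1.06 and the S-phase median 2.21, and in replicate 4 they are -0.07 and -1.20. The S-phase median is -1.17 in replicate 2 and -0.99 in replicate 3. The panels share libraries, so these medians are not independent of those in replicate 1.

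Most of the mitotic RNA was in the annotated coding form. The leading transcript of 49 of 52 genes was protein-coding, with Cenpa, Kif20b and Kif23 as the exceptions, and for 49 it was the same in both kinds of transcript table. Protein-coding transcripts held 77.7% ± 4.74 of the summed TPM of the 52 genes and 84.6% ± 1.43 without Cenpa, against 92.4% ± 0.83 over the 11753 protein-coding genes tested (SD, n = 4 libraries). Retained-intron transcripts held 8.55% ± 1.97 for the 52 genes, against 3.49% ± 0.72 for all coding genes tested (SD, n = 4 libraries). Cdk1 was the main case: a retained-intron transcript of 475 bases held 43.6% of its abundance in replicate 1 and 43.8%, 42.4% and 41.1% in replicates 2, 3 and 4. On protein-coding transcripts alone Cdk1 had 15.0 TPM in replicate 1, against 3.39, 3.02 and 6.35 TPM in replicates 2, 3 and 4, so replicate 1 remained the highest and replicate 4 the next, while replicate 3 and not replicate 2 was the lowest. Kif23 had 29.6% to 47.2% of its abundance in a processed transcript of 392 bases, and its protein-coding transcripts had 5.52 TPM in replicate 1, against 2.95, 2.42 and 5.01 TPM in replicates 2, 3 and 4. On these transcripts replicate 1 was the highest library, whereas over all its transcripts Kif23 was highest in replicate 4.

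Other features of the libraries were also compared. Replicate 1 had the fewest expected counts, 30088678, against 40282297 to 47961117 in the others. All 10 macrophage markers were detected, with a median log2(TPM + 1) of 7.75 ± 0.23 (SD, n = 4). In replicate 1 their log2 folds were negative for 8 and positive for 2, with a median of -0.24. The integrin gene Itgam was called higher there and the receptor gene Mertk lower (14.5% and 7.58% of all genes tested). Markers of the dividing precursors that marrow cultures start from were low: 0 of 10 myeloid progenitor markers were detected, and their summed level was 1.41 TPM in replicate 1 and 1.68 to 2.13 TPM in the others. Of the other lists, 5 of 10 neutrophil markers were detected, as was 1 of 7 erythroid markers and 0 of 8 each for B cells, T cells and stroma. Replicate 3, the lowest library for 47 of the 52 mitotic genes, was the highest in log2 CPM for 5 of 5 stromal and 6 of 7 neutrophil markers tested (19.6% of all genes tested), and 0 of these were called there by edgeR or by DESeq2's Wald test, although 5 and 3 of them passed an unadjusted p under 0.05 as higher (0.712% of all genes tested). The stromal markers summed to 1.69 TPM in replicate 3, against 0.14, 0.11 and 0.04 TPM in replicates 1, 2 and 4, where Dcn and Pdgfra had 0 counts. The neutrophil markers summed to 48.0 TPM in replicate 3, against 32.3, 32.3 and 35.2 TPM in replicates 1, 2 and 4. Of the 7 neutrophil markers tested, 1, Mmp8, was called higher in replicate 1 (14.5% of all genes tested). The other 6 had negative log2 folds there, and the list median was -1.19. Nuclear-retained RNAs, a sign of nuclear carry-over into the cytosolic fraction, summed to 367 TPM in replicate 1, against 286, 1130 and 1077 TPM in replicates 2, 3 and 4. The part of depth, other cells or nuclear RNA in the mitotic levels was not tested. Besides Kif4 and Ncapg, 6 of the 52 genes overlap a gene of at least 1 TPM, which are Ccna2, Cdca8, Cdc20, Kif20a, Nusap1 and Ncapd2.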

How the data were processed

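Ribosome-depleted total RNA of the cytosolic fraction was sequenced in 4 libraries of 1 group. The authors' deposit holds, per library, 1 gene table and 2 transcript tables, of which the second lists targets. Per the file headers these hold expected counts (estimated counts in the target tables), which need not be whole, and TPM. The authors' deposited transcript tables also give the percent of a gene's abundance in each isoform. The text deposited by the authors beside the files names mm10 and GENCODE M21, while neither aligner nor quantifier, version or use of strand is given there, and so reads of overlapping genes cannot be told apart. Features naming no gene held 0.0267% to 0.407% of the counts and entered neither library sizes nor tests.

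Totals were 30088678, 47961117, 40282297 and 45771235 expected counts in replicates 1, 2, 3 and 4. A count of 0 allows up to 0.0997 CPM in replicate 1 and 0.0626 CPM in replicate 2, the shallowest and the deepest, at a floor of 3 counts, which covers counting error only. Expected counts were rounded, genes averaging 10 counts or more were kept, and libraries were scaled by TMM. Each replicate was set against its other 3 in edgeR 4.0.16 (R 4.3.3; quasi-likelihood test, Benjamini-Hochberg adjustment over all genes, calls at 0.05). The comparison leaves 2 residual degrees of freedom. Standard errors came from the fold and the F statistic. Log2 CPM used a prior count of 2. A Poisson fit's deviance, with 3 degrees of freedom, tested for variation beyond counting. Level medians are of log2(TPM + 1). DESeq2 1.42.0 served as an alternative. Scripts were tested on simulated data. Python 3.11.15, numpy 2.4.6, pandas 2.3.3 and matplotlib 3.10.9 did the rest.

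The 52 genes and all lists were chosen with earlier results of these data known. All 52 are accounted for by level. Folds are given for called genes, at most the 3 largest per function group, and other lists name at most their 3 most abundant genes and 3 called genes with the largest fold. Ahsp of the erythroid list was not matched. Promoter letters were searched on both strands of RefSeq windows.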

Additional observations from a re-analysis of the deposited data

Results flagged for a closer look

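In 4 of the 52 genes the highest library stood apart from the other 3 in log2 CPM, by a gap that took up more of the range than Dixon's 95% critical value for 4 samples. In each the library was replicate 1. The gap took 0.931 of the range for Cdca8, 0.869 for Smc2, 0.866 for Ect2 and 0.832 for Aurka. Chance flags about 1 in 20 such groups. For the other 48 genes the gap did not reach that value.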

How the results depend on the processing

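In replicate 1 against the other 3 libraries, the count of genes called higher was 29 and ran from 28 to 35 over the scaling by DESeq2's size factors, no count filter, a minimum mean of 100 counts (49 of the 52 tested), the target tables, leaving out 7SL and 7SK, and DESeq2's Wald test. Leaving out 1 of the other replicates gave 23 to 34. The count lower stayed at 1 in each of these, and the counts for replicates 2, 3 and 4 stayed at 0. Of the 30 genes called, 24 kept their call in all 9 alternatives that tested them, 6 lost it without replicate 3, of which Spc24 also lost it in the target tables, and 0 changed sign. The count varying beyond counting was 42 to 51 when 1 replicate was left out, lowest without replicate 1. The median log2 level of 1.49 was 0.78 in the target tables, 0.89 with a pseudocount of 0.1, 2.62 without 7SL and 7SK and 3.06 in CPM, and 1.28 to 1.66 when 1 replicate was left out. The pseudocount, the removal of 7SL and 7SK and CPM change the scale by construction, and the cause of the lower level in the target tables was not tested. The count detected was 43 and became 22 in the target tables and 25 at 2 TPM, and 37 to 46 when 1 replicate was left out. Leaving out 7SL and 7SK raises every TPM and can only raise that count. No paired analysis was possible because the libraries form 1 group. Depth limits Spc24 and Cdc25c most, with 19 and 14 counts in their lowest libraries.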
